A study of Mus musculus with 2 samples.

Results

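The nuclear respiratory chain subunits are the genes of the cell nucleus that encode parts of the 5 enzyme complexes of oxidative phosphorylation. Protein-coding genes were taken by their symbols, which name subunits of NADH dehydrogenase (complex I), succinate dehydrogenase (complex II), the cytochrome bc1 complex (complex III), cytochrome c oxidase (complex IV) and ATP synthase (complex V). The rule found 83 genes among the 43346 gene entries of the tables, of which 21474 were protein-coding. By present-day placement, 35 belong to complex I, 4 to II, 9 to III, 18 to IV and 16 to V. Atp5s, which bears an ATP synthase symbol but is not a structural subunit, was kept as a member outside the complexes. Members lay on 19 chromosomes, with 3 on X. The symbol rule leaves out a few subunits (Cox4i1, Cox4i2, Ndufab1) and cytochrome c (Cycs), which are given where a comparison needs them.

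RNA came from G1E, an immortalised male mouse line that its labels describe as an erythroid progenitor lacking Gata1, the gene of a DNA-binding factor that drives red cell maturation. There were 2 paired-end libraries of polyadenylated RNA, replicates 1 and 2 of 1 group, with 61982634 and 80658648 expected counts (read pairs assigned to genes by a model). The labels number them as biological replicates but cite 1 shared cell sample, so the spread between them may be technical and limits any statement to this line. No other condition was compared. Levels are in TPM, which scales reads by gene length and library total, and mean ± SD is over the 2 libraries (n = 2). Gata1 RNA itself was at 48.0 and 46.6 TPM, which does not show whether a functional protein was made. All 8 listed erythroid progenitor markers were detected, from Zfpm1 at 1195 TPM down to Kit at 96.7 TPM.

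Complexes I and II feed electrons from NADH and succinate into ubiquinone, complex III passes them to cytochrome c, and complex IV passes them to oxygen. Proton pumping by complexes I, III and IV drives complex V, which makes ATP. The mitochondrial genome encodes a few core proteins and the nucleus the rest, so every complex except II is built from both sources. Several complex IV subunits have a second form used in muscle, testis or under low oxygen.

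The most unequal pair of related genes that was expressed in both forms was Ndufa4 and Ndufa4l2. Ndufa4 encodes a subunit now placed in complex IV, and Ndufa4l2 encodes a related protein known for its induction under low oxygen. Ndufa4 lies at chr6:11900292-11907497 (minus strand) and Ndufa4l2 at chr10:127514967-127517154 (plus strand) on mm10. Their coding sequences are shown because the levels compared depend on telling their reads apart. They were identical at 70.5% of 237 aligned bases, and the longest identical run was 28 bases. Capitals mark bases that differ from, or have no counterpart in, the other gene.
Ndufa4: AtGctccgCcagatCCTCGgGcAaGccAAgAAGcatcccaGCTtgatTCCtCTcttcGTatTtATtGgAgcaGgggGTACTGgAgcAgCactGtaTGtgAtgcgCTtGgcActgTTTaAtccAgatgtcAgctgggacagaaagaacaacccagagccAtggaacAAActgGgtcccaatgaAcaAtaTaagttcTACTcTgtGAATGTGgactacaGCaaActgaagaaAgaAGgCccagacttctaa
Ndufa4l2: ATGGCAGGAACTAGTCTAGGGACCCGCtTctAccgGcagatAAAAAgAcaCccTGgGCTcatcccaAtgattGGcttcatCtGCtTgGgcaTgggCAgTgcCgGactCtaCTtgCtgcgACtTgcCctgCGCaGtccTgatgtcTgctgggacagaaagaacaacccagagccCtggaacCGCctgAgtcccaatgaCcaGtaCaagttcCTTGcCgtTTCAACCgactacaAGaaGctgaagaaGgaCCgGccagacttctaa

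The 3 genes of the c subunit, which forms the rotating ring of ATP synthase, encode the same mature protein with different import sequences. The last 180 coding bases, stop codon included, are shown and lie within the part that encodes the shared protein. Reads within this stretch can be assigned only by the bases that differ. Over the whole coding sequences, Atp5g1 and Atp5g2 were identical to Atp5g3 at 70.7% and 71.1% of aligned bases. Atp5g3 lies at chr2:73908447-73911326, Atp5g1 at chr11:96068852-96075670 and Atp5g2 at chr15:102662864-102672352, all on the minus strand of mm10. Capitals mark bases that differ from Atp5g3, 36 in Atp5g1 and 40 in Atp5g2.
Atp5g3: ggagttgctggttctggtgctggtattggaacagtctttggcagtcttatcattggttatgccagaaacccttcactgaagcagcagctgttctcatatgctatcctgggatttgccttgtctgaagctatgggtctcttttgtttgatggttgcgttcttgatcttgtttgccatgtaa
Atp5g1: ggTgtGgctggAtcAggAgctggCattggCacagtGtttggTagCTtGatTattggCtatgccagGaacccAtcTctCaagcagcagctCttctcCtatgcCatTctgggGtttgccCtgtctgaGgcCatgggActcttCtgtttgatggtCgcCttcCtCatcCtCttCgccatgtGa
Atp5g2: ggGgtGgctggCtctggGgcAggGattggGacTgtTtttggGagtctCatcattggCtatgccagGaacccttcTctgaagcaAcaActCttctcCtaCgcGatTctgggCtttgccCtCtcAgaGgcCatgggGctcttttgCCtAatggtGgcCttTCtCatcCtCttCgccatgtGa

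Of the 83 members, 78 reached 1 TPM in each of the 2 libraries, the level taken as detected, whereas 40.0% of all protein-coding genes (8581 of 21474) met that level. In both libraries, 72 members reached 10 TPM and 33 reached 100 TPM. The median over all members was 57.9 TPM in replicate 1 and 107 TPM in replicate 2. Among detected protein-coding genes the medians were 17.0 and 19.0 TPM, and the member medians were 3.41 and 5.64 times as high. Together the members held 2.32% and 2.33% of all TPM. The 7 highest, Cox5b, Cox6a1, Uqcr11, Atp5d, Atp5b, Ndufa4l2 and Atp5g3, held 56.1% of the member total in replicate 1 and 46.2% in replicate 2.

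Related gene groups gave a scale for these levels. Mitochondrial ribosomal protein genes, which build the machine that translates the mitochondrial messages, had medians of 50.9 and 54.2 TPM over 77 genes. Enzymes of the tricarboxylic acid cycle had medians of 32.6 and 35.4 TPM over 13 genes. Glycolysis enzymes stood far higher, at 544 and 585 TPM over 15 genes. The member medians therefore lay above those of the cycle enzymes and below those of glycolysis in both libraries, and the distance to the mitochondrial ribosomal genes was 1.14 times in replicate 1 and 1.98 times in replicate 2.

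Medians by complex were 84.3 and 129 TPM for complex I, 55.4 and 102 for complex II, 114 and 107 for complex III, 17.3 and 33.1 for complex IV, and 59.4 and 110 for complex V, in replicates 1 and 2. Complex IV was lowest in both libraries. Complex III was highest in replicate 1 and complex I in replicate 2, so the order of the other 4 in TPM did not hold between libraries. A measure added after seeing the data, called the longest-coding level here, divides counts by the length of each gene's longest coding transcript. By that level both libraries gave the order III, I, V, II, IV. With annotated gene length in place of effective length, the order was III, I, II, V, IV in replicate 1. In replicate 2 it was I, III, II, V, IV. With posterior mean TPM, another deposited estimate, the orders were those of TPM and also differed between libraries. Only the longest-coding level gave the same order in both libraries. The low median of complex IV goes with 4 tissue-restricted forms that were not detected. Over its 14 detected members the medians were 39.1 and 93.1 TPM, still the lowest of the 5 in replicate 1 and in replicate 2. Complex IV also held the 2 highest members of all, Cox5b and Cox6a1, and the largest summed share in replicate 1, 0.819% of all TPM against 0.591% for complex I. In replicate 2 the shares were 0.714% and 0.716%, and the share of complex IV includes Ndufa4l2, which is placed there by its relation to Ndufa4.

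**Figure D1:**
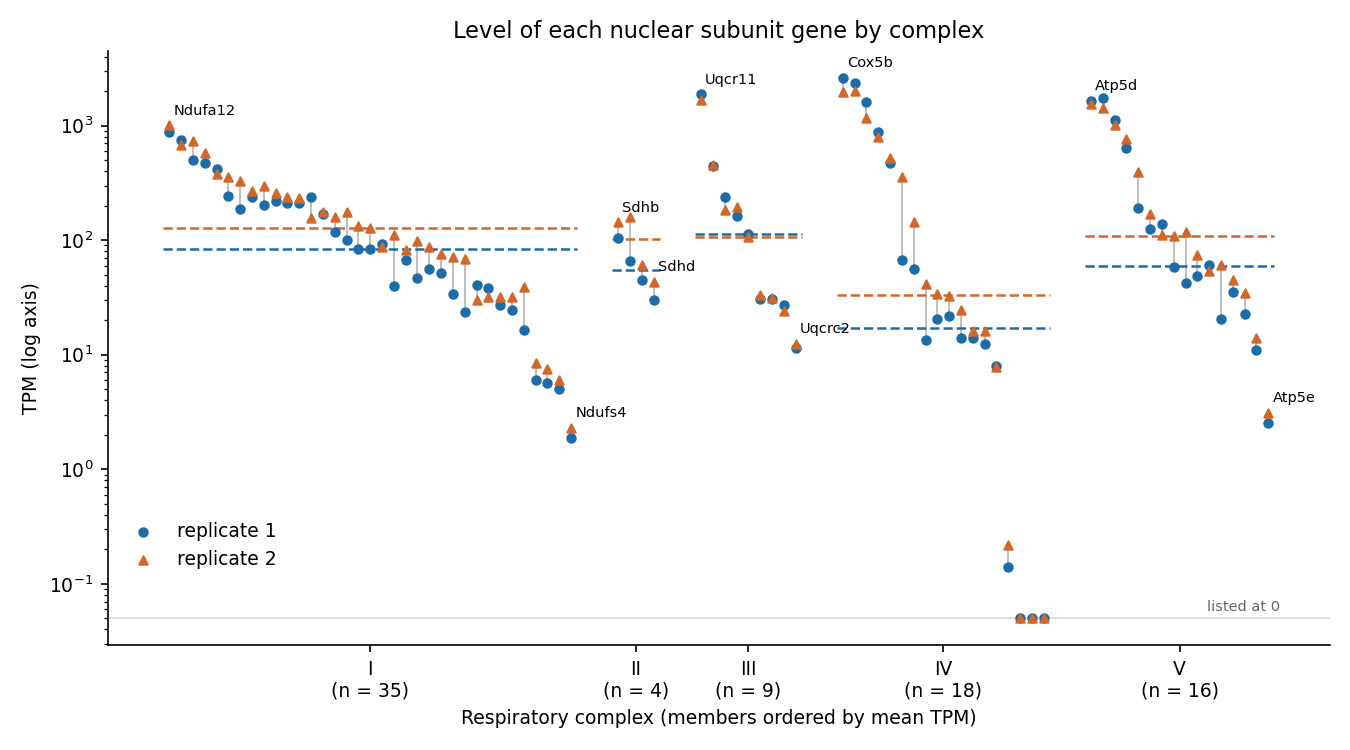
TPM (log axis) of the 82 members placed in a complex, ordered by mean level within each complex; circles are replicate 1, triangles replicate 2, grey lines join the same gene and dashed lines are medians. Levels spread over 100-fold in complexes I, III, IV and V and 3.35-fold in complex II, and 3 complex IV genes are listed at 0 in both libraries.

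Among complex I members, Ndufa12, an accessory subunit, was highest at 878 and 1011 TPM. Ndufa7 followed at 748 and 673 TPM, Ndufv3 at 502 and 730 TPM, and the X-linked Ndufb11 at 474 and 582 TPM. Ndufs4, an accessory subunit whose loss causes complex I deficiency, was lowest at 1.88 and 2.30 TPM, from 146 and 225 counts. Another 3 accessory genes stayed under 10 TPM: Ndufa5 (5.99 and 8.41), Ndufb3 (5.67 and 7.56) and Ndufa9 (5.06 and 6.07). The highest member thus stood 452 times above the lowest in TPM, and the libraries placed the same genes at both ends. By the longest-coding level Ndufa12 came to 380, below Ndufa7 at 807, Ndufb11 at 693 and Ndufb10 at 582. Ndufb10 gave 97.05% and 95.36% of its TPM to a retained-intron transcript, whose reads that level counts as well. Ndufab1, a complex I subunit outside the symbol rule, was above every complex I member in TPM, at 1727 and 1273.

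The 7 core subunits of complex I, which form the electron path from NADH to ubiquinone, spread much less than the 28 accessory ones. Ndufv1, the NADH-binding flavoprotein, was highest among them at 239 and 269 TPM. Its main coding transcript held 8.20% and 16.8% of that TPM, and retained-intron transcripts of 412 and 909 bases held most of the rest. Ndufs3, also a core subunit, gave 81.5% and 80.1% to a processed transcript. Both the TPM and the longest-coding level of a gene count all its transcripts, coding or not. Ndufs7, which carries the last iron-sulfur cluster of the path, was at 219 and 260 TPM, and Ndufs8, another iron-sulfur protein, was lowest in mean level at 34.2 and 70.8 TPM. The core means spanned a 4.84-fold range in TPM and an 8.54-fold range by the longest-coding level, where Ndufs7 (232) stood above Ndufv1 (153). Ndufs1, the largest core subunit, was at 56.1 and 86.4 TPM, and by the longest-coding level it was at 27.1, below Ndufs8 at 69.6. Accessory medians were 91.8 and 145 TPM. Of the accessory genes, 15 of 28 exceeded 100 TPM in mean level and 4 stayed under 10 TPM.

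In complex II, Sdhb, the iron-sulfur protein, was at 104 and 143 TPM, and Sdhc, a membrane anchor, at 66.0 and 159 TPM. Sdha, the catalytic flavoprotein, was at 44.7 and 60.6 TPM, and Sdhd, the other anchor, at 30.3 and 43.5 TPM. The highest mean stood 3.35 times above the lowest in TPM. By the longest-coding level the genes were farther apart and in another order, with Sdhb at 168, Sdhd at 51.2, Sdhc at 39.1 and Sdha at 28.5. For Sdhc that level divides by a coding transcript of 3171 bases, which held 1.69% and 2.98% of its TPM. Another coding transcript, of 815 bases, held 89.7% and 93.6%, so the lower place of Sdhc rests on a length hardly used. In TPM, every one of the 4 was higher in replicate 2.

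In complex III, Uqcr11, a small accessory subunit, was highest at 1878 and 1666 TPM. Uqcrc1, one of the paired core proteins, was at 441 and 456 TPM, whereas Uqcrc2, its partner, was lowest in the complex at 11.4 and 12.5 TPM. The core partners differed 37.5-fold in mean level, far more than either differed between libraries. Cyc1, the haem protein cytochrome c1, was at 237 and 183 TPM, and Uqcrfs1, the Rieske iron-sulfur protein, at 114 and 107 TPM. The remaining small subunits were Uqcrq at 180 ± 22.1 TPM and Uqcrb, Uqcrh and Uqcr10 between 25.5 and 31.9 TPM. By its median, with an SD of 4.78 TPM, complex III was the most even of the 5 between libraries. Its summed share was 0.293% and 0.271% of all TPM, less even than that of complex V, at 0.592% in both libraries.

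Complex IV combined the highest and the lowest members. Cox5b, which binds zinc, was at 2617 and 1968 TPM, Cox6a1 at 2378 and 2008 TPM, and Cox5a at 876 and 792 TPM. Cox8a was at 474 and 524 TPM. Cox7c, another small subunit, was at 67.0 TPM in replicate 1 and 359 TPM in replicate 2, the largest ratio between libraries of any tested member. Far below them, Cox6c was at 27.1 ± 7.43 TPM and Cox7b at 14.4 ± 2.61 TPM. Proteins that share 1 complex were therefore encoded by RNAs that differed by over 100-fold in level, as Cox5b and Cox7b did in both libraries.

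Tissue forms of complex IV subunits were read as pairs, with the form known from most tissues first. Cox6a1 exceeded the heart and muscle form Cox6a2, which had 0.14 and 0.22 TPM from 4 and 8 counts. Cox8a, at 474 and 524 TPM, faced Cox8b, a muscle and brown fat form, and Cox8c, a testis form, both at 0 counts. A count of 0 allows up to 3 counts, or 0.246 and 0.198 TPM for Cox8b and 0.162 and 0.129 TPM for Cox8c, so Cox8a was at least 1925- and 2647-fold higher than Cox8b and at least 2932- and 4055-fold higher than Cox8c. Cox7b was at least 92.9- and 151-fold higher than the testis form Cox7b2, which also had 0 counts. Cox4i1, outside the symbol rule, was at 177 and 331 TPM and at least 1934- and 4548-fold higher than Cox4i2, the lung form, at 0 counts. Such limits cover counting error only.

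Defining markers of muscle and testis were at or near 0, and markers of brown fat and lung were not examined. None of the 9 muscle markers was detected, with summed levels of 0.46 and 0.88 TPM, and Mb, Ckm and Actc1 had 0 counts in both libraries. None of the 8 testis markers was detected, with a summed level of 0.04 TPM in each library, and all but Odf1 had 0 counts.

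Another 3 pairs had both forms detected. Cox6b2, known as a testis form, was at 7.93 and 7.89 TPM from 180 and 215 counts. It lay below Cox6b1, at 56.3 and 144 TPM, by 7.10- and 18.3-fold. A retained-intron transcript held 44.0% and 54.1% of the Cox6b2 TPM, and its main coding transcript was at 4.18 and 2.76 TPM. Cox7a1, the heart and muscle form, was at 20.4 and 33.8 TPM and Cox7a2, the form of most tissues, at 14.0 and 16.1 TPM. The log2 ratio of Cox7a2 to Cox7a1 was -0.80 ± 0.37, with Cox7a1 higher in both libraries. By counts the order was the other way, with 478 and 690 for Cox7a2 against 251 and 517 for Cox7a1, since Cox7a2 has a transcript of 754 bases and Cox7a1 one of 364.

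Ndufa4l2 gave the largest reversal. It was at 1621 and 1167 TPM from 73885 and 67026 counts, and Ndufa4 was at 14.1 and 24.5 TPM from 274 and 597 counts. Ndufa4l2 was 115- and 47.6-fold higher, a log2 ratio of Ndufa4 to Ndufa4l2 of -6.20 ± 0.90. Its mean lay at percentile 98.9 of detected protein-coding genes. Both libraries gave Ndufa4l2 as the higher gene, and neither had a near-identical copy elsewhere by the search used here. Cytochrome c itself, the soluble carrier between complexes III and IV, was low, with Cycs at 4.14 and 9.99 TPM. Its testis form Cyct had 0 and 1 counts. The copy search covered members only, so copies of Cycs that could take its reads were not searched.

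**Figure D2:**
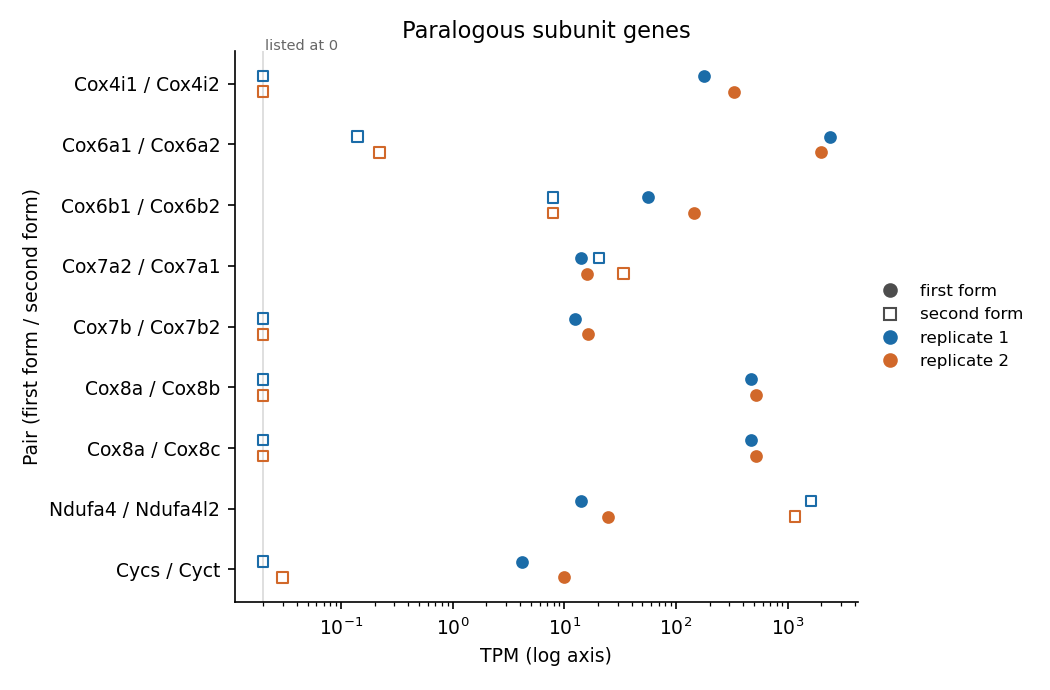
TPM (log axis) of both genes of 9 pairs; filled circles are the first-named form, open squares the second, blue replicate 1 and orange replicate 2, with genes without counts placed on the line marked as listed at 0. The second form lies to the right of the first only for Ndufa4l2 and Cox7a1.

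In complex V, Atp5d and Atp5b led. Atp5d, the delta subunit of the central stalk, was at 1652 and 1551 TPM, and Atp5b, the catalytic beta subunit, at 1746 and 1421 TPM. Atp5a1, the alpha subunit that alternates with beta, was at 635 and 763 TPM. The gamma subunit gene Atp5c1 was far lower at 22.9 and 34.5 TPM, and Atp5e, the epsilon subunit, was lowest at 2.53 and 3.12 TPM from 110 and 114 counts. Of the Atp5e counts, 86.3 and 65.4 were at a retained-intron transcript of 1697 bases and 22.4 and 45.8 at its coding transcript. The 5 genes of the catalytic head and central stalk thus spread 567-fold in TPM and 183-fold by the longest-coding level, where Atp5e came to 6.66, Atp5d to 1215 and Atp5b to 462. For Atp5e that level divides all counts, retained-intron ones included, by the 421 bases of the coding transcript.

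The peripheral stalk and the small membrane subunits of complex V were more even. Stalk genes Atp5f1, Atp5h, Atp5o and Atp5j lay between 57.3 and 125 TPM in mean level. Their range was 2.17-fold in TPM and 3.20-fold by the longest-coding level. Atp5f1 gave only 4.69% and 12.9% of its TPM to its coding transcript, and Atp5h gave 76.9% and 82.4% to a processed transcript. Atp5k, Atp5j2, Atp5l and Atp5mpl lay between 12.5 and 61.6 TPM. Among the c subunit genes, Atp5g3 held 78.0% and 64.2% of their summed TPM, Atp5g1 13.3% and 25.0%, and Atp5g2 8.69% and 10.8%. Atp5g3 led in both libraries although its share moved by more than 10 percentage points, and its differences from the other genes are marked in the sequences above. Their summed level was 1444 and 1563 TPM. Atp5s was at 0.55 and 0.53 TPM and not detected.

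Genes that assemble the complexes, regulators of respiratory genes and the mitochondrially encoded subunits were taken from lists. Detected were 13 of 14 complex I assembly genes, 3 of 4 for complex II, 5 of 6 for complex III, 25 of 25 for complex IV and 4 of 4 for complex V. Their medians, from 2.40 TPM for complex II to 61.0 TPM for complex V, lay below those of the subunits of the same complex in mean level; in replicate 1 alone the assembly medians of complexes IV (18.6 TPM) and V (62.6 TPM) were slightly above the subunit medians of 17.3 and 59.4 TPM. Undetected were Ndufaf7 (0.84 and 1.99 TPM), Sdhaf3 (0.38 and 1.45) and Lyrm7, a chaperone of the Rieske protein (0.15 and 0.34). Of 15 regulators 14 were detected. The coactivator Ppargc1a had 0 and 1 counts, while its relatives Pprc1 and Ppargc1b were at 64.1 and 32.0 TPM. Myc was the highest regulator at 812 TPM, Nrf1 was at 8.97 TPM and Gabpa, the DNA-binding part of GABP, at 5.98 TPM.

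Of the 13 subunits encoded by mitochondrial DNA, 12 were detected, with medians of 554 and 687 TPM and 0.973% and 1.02% of all TPM. Their highest was mt-Nd4l, and mt-Co3, a core subunit of complex IV, was at 0.30 and 0.22 TPM from 10.7 and 10.1 counts. The search for near-identical copies described below covered members only. Whether reads of mt-Co3 were placed at other gene entries was therefore not tested, and its value does not show that the gene was silent.

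Each gene's counts in the libraries were compared by an exact conditional binomial test, two-sided, and a gene was called where the Benjamini-Hochberg adjusted p was under 0.05 and the scaled counts differed 2-fold or more. Of 11636 genes tested, 671 (5.77%) were called, and 3.92% were called as higher in replicate 2. Among detected protein-coding genes, 214 of 8581 (2.49%) were called, 162 of them higher in replicate 2. Of the 79 members tested, 8 (10.1%) were called and all 8 were higher in replicate 2. Cox7c, a small complex IV subunit, was at 67.0 and 359 TPM with a log2 ratio of 2.36. Next were Cox7a2l, a factor that joins complexes III and IV (13.6 and 41.8 TPM, log2 ratio 1.46), and the ATP synthase genes Atp5j2 (20.5 and 61.1 TPM, 1.36) and Atp5o (41.9 and 119 TPM, 1.35). The complex I accessory genes Ndufa2 (40.0 and 111 TPM, 1.30) and Ndufb5 (23.5 and 67.9 TPM, 1.23), Sdhc (1.22) and Cox6b1 (1.18) completed the calls. Complex III had no call among 9 members.

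This test holds only counting error. With the spread of all genes between libraries included (edgeR's negative binomial exact test, common coefficient of variation 0.224), Cox7c alone was called, with an adjusted p of 0.00034, against 114 genes in all. The other 7 had adjusted p between 0.15 and 0.42 in that test. The median log2 ratio was 0.16 over the 79 members and 0.01 over all genes tested. Replicate 2 was the deeper library, and the called members had a median GC content of 51.9% against 52.2% for the rest; the part of depth or base composition was not tested.

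**Figure D3:**
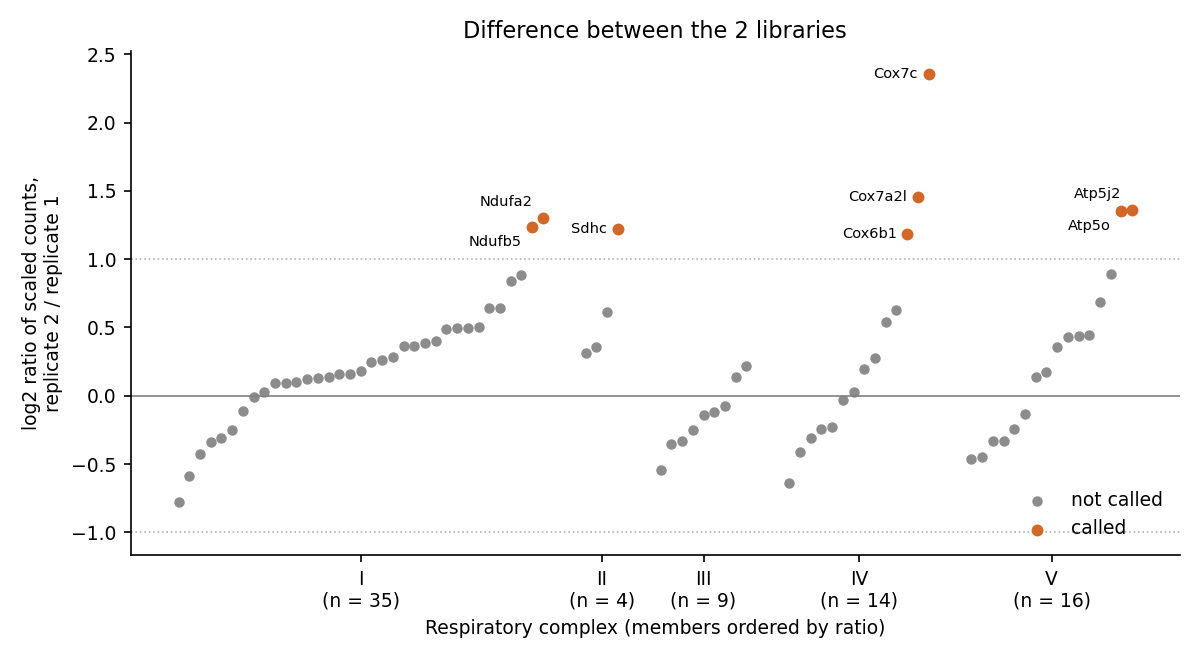
log2 ratio of TMM-scaled counts (replicate 2 over replicate 1) for the 78 tested members placed in a complex, ordered within each complex; orange points were called and dotted lines mark 2-fold. The 8 called members lie above the upper line, Cox7c highest, and no member lies below the lower line.

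Some levels rest on a short or non-coding transcript model. The tables divide each gene's TPM over its transcripts, 316 for the members. Of the 78 detected members, 25 gave their leading transcript under 80% in at least 1 library, and 12 (15.4%) were led by a transcript not annotated as coding, against 19.0% of 8500 detected protein-coding genes. Atp5b gave 92.2% and 86.8% to a processed transcript of 343 bases, while its longest coding transcript has 1916. Ndufa12 gave 97.9% and 98.1% to a retained-intron transcript of 428 bases, and Ndufb2 gave 94.2% and 91.0% to one of 422. TPM divides by these lengths. By the longest-coding level Atp5b came to 462 ± 2.64 on the TPM scale in place of 1584 ± 229. That measure has its own limit where the longest coding transcript is hardly used, as for Sdhc above. The longest-coding median of complex II takes in that Sdhc value. Ndufb2 came to 20.1 ± 6.13 in place of 198 ± 59.2, but its longest coding transcript, of 4371 bases, held 0.04% and 0.10% of its TPM, and its main coding transcript has 455 bases, near the 422 of the leading one. For Ndufa12 the longest coding transcript, of 1110 bases, held 0.07% and 0.05%, and its main coding transcript has 566. Of the 78, 13 had a TPM over 1.5 times that level and 2 had one under 1/1.5 of it.

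**Figure D4:**
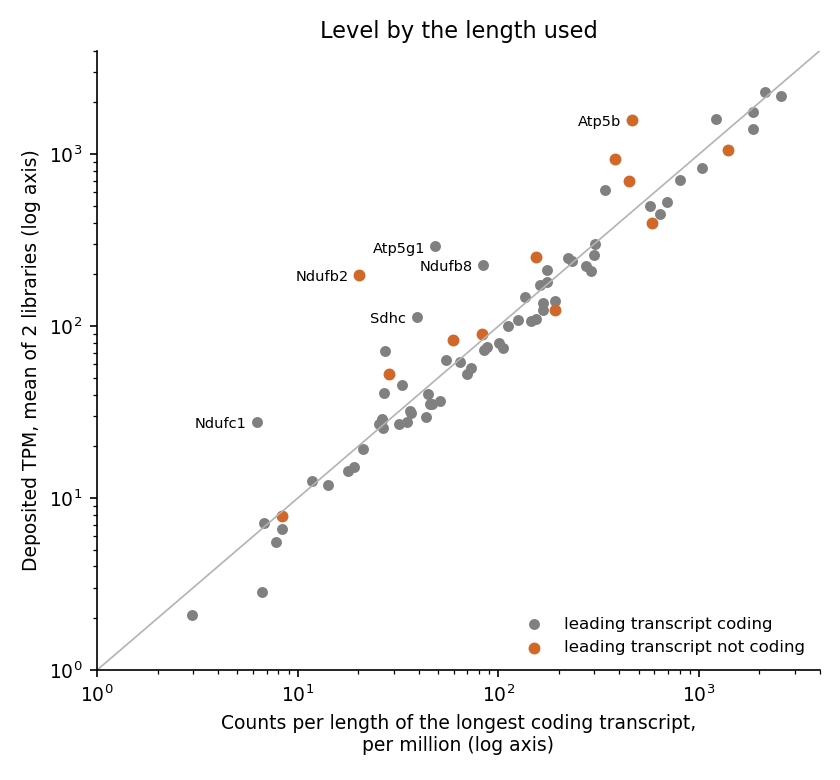
Deposited TPM against counts per length of the longest coding transcript, scaled to the same total, for the 78 detected members (log axes, means of 2 libraries; the line marks equality). Genes led by a transcript not annotated as coding are orange; Ndufb2, Atp5g1, Ndufc1 and Atp5b lie farthest above the line.

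Near-identical copies made another group of levels uncertain. At 95% identity or more over at least 150 bases, 27 members had another gene sharing their sequence, mostly processed pseudogenes, and most of those copies held few counts. The largest share at a copy was that of Ndufb4, an accessory subunit of complex I at chr16:37647170-37654453. Its whole coding sequence of 390 bases was found unchanged in the processed pseudogene Ndufb4c at chr15:73809507-73809896. The first 150 coding bases, the same in both genes, are shown.
Ndufb4: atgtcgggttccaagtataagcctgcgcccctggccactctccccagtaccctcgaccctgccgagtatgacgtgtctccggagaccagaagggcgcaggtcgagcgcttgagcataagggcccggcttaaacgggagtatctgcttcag
Ndufb4 was given 40.3 and 30.1 TPM and Ndufb4c 1337 and 884 TPM, with 90.8% and 89.7% of their summed counts at the copy. As reads within this stretch fit both genes, their division is uncertain. Their sum came to 1377 and 914 TPM, above every other complex I member in replicate 1. It lay below Ndufab1, outside the symbol rule, in both libraries (1727 and 1273 TPM). Copies or overlapping genes also held 27.2% and 31.7% of the summed counts for Atp5f1 (mostly at Wdr77), 1.45% and 6.59% for Atp5g1 (Gm10039) and 32.1% and 12.9% for Cox7a2l. Ndufb6 had 3734 and 4888 counts beside 923 and 934 at Smim27, which shares 257 identical bases with it. Cox7a2l shared 201 identical bases with Gm6969, and the log2 ratio of their summed counts between libraries was 1.10 in place of 1.46. For Cox7c the sum with its copy left the ratio at 2.35. In all, 33 members overlapped another gene, and the sources used here do not say whether counting used strand.

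Across the 78 detected members, level and GC content of the leading transcript had a Spearman rho of 0.38 in replicate 1 and 0.37 in replicate 2. Over 8500 detected protein-coding genes rho was 0.40 and 0.36, close to the values over the members. The 26 members of lowest GC content had median levels of 33.0 and 44.2 TPM, the middle 26 had 47.7 and 84.2 TPM, and the highest 26 had 211 and 238 TPM. These values are across genes of the same libraries and describe them only. For the 12 members led by a transcript not annotated as coding, the GC content is that of the non-coding transcript. Transcript length, with a median of 666 bases against 2011, had a rho of -0.04 and -0.07 with level, whereas over the detected protein-coding genes rho was -0.29 in both libraries.

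**Figure D5:**
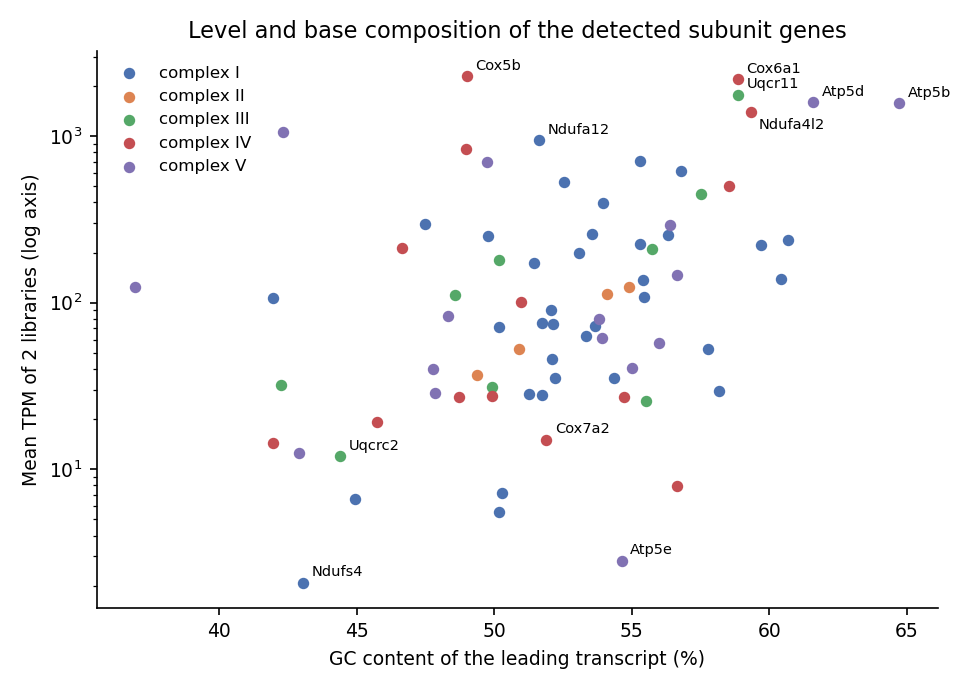
Mean TPM (log axis) against GC content of the leading transcript for the 78 detected members, coloured by complex. Members above 1000 TPM include 5 with GC content near 59% or more as well as Cox5b and Atp5g3 at lower GC content. Atp5b, among the 5, and Atp5g3 are led by processed transcripts. These have 64.7% and 42.3% GC, against 51.6% and 50.5% in the longest coding transcripts.

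Promoters were read from RefSeq starts (GRCm38.p6) for the 66 members that the table holds, as the 250 bases before the start. Motifs of factors known for respiratory genes were searched on both strands. CCGGAAG, bound by ETS factors such as GABP, was in 12 member promoters (18.2%), against 10.6% of 16317 protein-coding genes but 19.3% of 6878 detected ones. GCGCANGCG, bound by NRF1, was in 14 (21.2%), against 8.40% and 15.1%. AAGGTCA, bound by oestrogen-related receptors, was in 5 (7.58%), against 4.16% and 3.18%, and AAGATGGC, bound by YY1, was in 1 (1.52%), against 1.78% and 2.82%. The ETS share was thus that of detected genes in general. Adding 50 bases after the start, a window chosen after seeing the data, gave NRF1 30.3% against 18.3% of detected genes, YY1 13.6% against 6.62%, the oestrogen-related receptor motif 12.1% against 3.58% and ETS 24.2% against 24.9%. A match is a description of letters, not a site.

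Members that held the NRF1 motif in the 250 bases had a median of 46.4 TPM and those that did not had 117 TPM; in the wider window the medians were 71.9 and 103 TPM. Cox6a1 was 1 of 4 members with both ETS and NRF1 motifs. Its promoter and that of Uqcr11, each the highest member with a motif in its complex, are shown, chosen after their values were seen. They lie at chr5:115348959-115349208 and chr10:80406822-80407071, both on the minus strand of GRCm38.p6, and capitals mark motif matches. Cox6a1 held 1 ETS match and 3 NRF1 matches, of which a pair overlap, and Uqcr11 held 1 ETS match.
Cox6a1: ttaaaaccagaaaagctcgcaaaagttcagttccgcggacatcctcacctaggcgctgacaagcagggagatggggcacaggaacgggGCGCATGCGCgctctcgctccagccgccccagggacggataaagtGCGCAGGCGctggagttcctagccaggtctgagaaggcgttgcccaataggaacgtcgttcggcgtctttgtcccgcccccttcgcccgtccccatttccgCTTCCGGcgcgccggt
Uqcr11: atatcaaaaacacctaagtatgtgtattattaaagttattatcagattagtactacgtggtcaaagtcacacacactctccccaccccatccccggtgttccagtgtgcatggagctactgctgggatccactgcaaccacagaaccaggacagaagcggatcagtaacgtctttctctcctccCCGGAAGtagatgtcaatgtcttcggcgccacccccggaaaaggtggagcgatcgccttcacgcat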

How the data were processed

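The data were 2 poly(A) RNA-seq libraries of 1 group. Per the deposited descriptions, the authors made tables per gene and per transcript on mm10 with annotation M4; aligner and counter: not given in the sources used here. The deposited expected counts are estimated and need not be whole. The deposited TPM is scaled by effective length and library total, the posterior mean TPM likewise, and the deposited percent is each transcript's share of its gene's TPM.

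Symbols, types and positions came from GENCODE M21 on the same assembly by gene identifier, which matched 42462 of 43346 entries (98.0%). Members and lists were chosen with earlier results of these data known. Named genes are members, both forms of each pair, called members, and the highest, lowest and undetected genes of the lists. Levels are the deposited TPM, with 1 TPM in both libraries as detected. Log2 ratios of pairs used a pseudocount of 0.1. The single group allowed no test between conditions. For the comparison of libraries the expected counts were rounded to whole numbers and scaled by TMM (edgeR 4.0.16, R 4.3.3; factors 0.960 and 1.04), with genes of 10 or more counts in at least 1 library, a floor of 3 counts in ratios and an exact conditional binomial test; DESeq2 1.42.0 size factors were an alternative. On counts simulated for these libraries with counting error only, the test recovered 91.9% of 198 genes changed 2.5-fold (11553 genes). It recovered 97.0% of 199 changed 4-fold (11554 genes). Spread between libraries beyond counting error was not simulated. Copies were found with blastn 2.17.0. Protein identity was planned and not run, and coding-sequence identity is given in its place. Values of 1 member are not reported here. Scripts ran in Python 3.11.15 with NumPy 2.4.6, pandas 2.3.3, SciPy 1.17.1 and, for figures, matplotlib 3.10.9.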

Additional observations from a re-analysis of the deposited data

How the results depend on the processing

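Of 110 alternative values computed, 83 moved by less than the spread between libraries (counts by less than 1.5 times), 27 moved by more and 0 reversed. The 83 include the values without either library. For medians, summed share and log2 ratios those could not move by more than that spread, so 83 of 110 overstates how steady the results are. With counts over the length of the longest coding transcript, chosen after seeing the data, the median was 45.1 for complex II and 153 for complex III, the members held 2.23% of the total, and log2 ratios were -0.38 for Cox7a2 to Cox7a1, 7.47 for Cox7b to Cox7b2 and 12.48 for Cox8a to Cox8b and to Cox8c. With annotated length in place of effective length, complex III had a median of 121, the members held 2.20%, and log2 ratios were -0.38 for Cox7a2 to Cox7a1 and 12.12 for Cox8a to both other forms. Complex IV had a median of 66.1 TPM over detected members. With posterior mean TPM the members held 2.30%, and log2 ratios were 10.59 for Cox4i1 to Cox4i2, 6.73 for Cox7b to Cox7b2, 11.46 for Cox8a to Cox8b and 11.73 to Cox8c. With a pseudocount of 1 they were 7.93 for Cox4i1, 10.86 for Cox6a1 to Cox6a2, 3.93 for Cox7b, 8.96 for Cox8a to both forms and 2.89 for Cycs to Cyct; ratios to a form without counts depend on the pseudocount and are no bounds. Members called between libraries numbered 8 as reported, the same 8 with DESeq2 size factors, without the filter and at a minimum of 50 counts, 66 without a fold requirement (44 higher in replicate 2), and 1, Cox7c, at 4-fold and in the negative binomial test. Genes called in all numbered 671 as reported, 7541 without a fold requirement, 148 at 4-fold, 114 in the negative binomial test and 421 at a minimum of 50 counts. Without either library no value moved by more than the spread, which 2 libraries fix by construction. No paired analysis was possible because the samples form 1 group.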

Other observations

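Of the 7 members at 1000 TPM or more in mean level, 4 (Uqcr11, Atp5d, Atp5b and Ndufa4l2) lie on chromosome 10, which holds 6 of the 83 members; this was noticed after the values were seen. The median over those 6 was 1636 TPM in replicate 1 and 1294 TPM in replicate 2. Among detected protein-coding genes, 17 of 406 on chromosome 10 (4.19%) reached that level, the 4 members included, against 130 of 8581 (1.51%) in the whole genome. The median level of detected genes on chromosome 10 was 17.6 and 18.2 TPM, near the 17.0 and 19.0 TPM of all detected genes. The Atp5b level counted here is the one that rests on a short transcript model.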
